A study of Mus musculus with 15 samples.

Results

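The p53 network and apoptosis genes are 38 genes. These encode the p53 family, regulators of p53, targets through which p53 halts or kills damaged cells, and survival proteins of the BCL2 family. They were chosen by symbol, and all 38 are among the 24027 symbols of the deposited tables. Their RNA was measured by RNA-seq in the skin of female SKH1 mice, which are hairless and develop skin tumours under ultraviolet light. From an age of 6 to 8 weeks the animals were given ultraviolet B, 500 J/m2 on 5 days of each week over 10 weeks, until they bore actinic keratoses, the precursor of squamous cell carcinoma. The groups are lesional skin of mice given 0.25 g of a cream with GZ21T, and 4 kinds of skin from mice given 0.25 g of a placebo cream: lesional skin, perilesional skin, irradiated skin without lesions (non-lesional), and skin not exposed to UV. Each of the 5 groups has 3 libraries, which makes 15. The placebo libraries are numbered 1 to 3 at every site and may come from the same mice, and the labels do not state that each number is 1 animal, so the p-values reflect library-to-library spread, part of which may be technical.

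The tables give a fold change, a Wald statistic and p-values for each gene in 4 comparisons, with no value per library, so the depth is unknown and levels cannot be set beside fold changes. Values below are log2 fold changes ± SE, the SE being the fold change over its Wald statistic, and a gene is called changed at an adjusted p under 0.05 over all genes tested. Of the 38 members, 36 passed the authors' filter on low counts in every table. Gdf15, a stress-induced cytokine, and Rprm, an inhibitor of entry into mitosis, did not and were not tested. Their SEs lay between 2.63 and 3.10. Of the 36 tested, 7 were called in at least 1 deposited table and 29 in none. The share of all genes called in at least 1 table was not computed, so the 7 of 36 is not read as high or low. In lesional over non-UV-exposed skin alone, 18.3% of the 15201 genes tested were called.

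p53 is a transcription factor that is stabilised when DNA is damaged, as by ultraviolet light, and then switches on genes of cell cycle arrest, repair and death. MDM2 and MDM4 hold it in check, and ARF, a product of Cdkn2a, blocks MDM2. Much of the control of p53 acts on the protein and does not show in RNA. In epidermis p63, its relative, maintains the basal keratinocytes, and mutation of Trp53 is an early and common event in ultraviolet-induced skin lesions. These tables hold no mutation data.

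The largest difference among the members was that of Cdkn2a, which encodes the cyclin-dependent kinase inhibitor p16INK4a and, from another first exon and reading frame, p19ARF. The authors' deposited table gives it 4.07 ± 0.61 in lesional over non-UV-exposed skin, a 16.7-fold difference (adjusted p = 1.8e-08). Its SE there exceeded that of 91.8% of genes tested in every table, so the size of the fold is imprecise. Cdkn2a was also higher in irradiated skin without lesions, at 2.50 ± 0.62 over non-UV-exposed skin (5.67-fold, adjusted p = 0.0080) by the authors' deposited table. Perilesional skin lay between these sites, at 3.44 ± 0.80 over non-UV-exposed skin by the sum of the deposited steps, with the largest SE they allow (normal tail with Benjamini-Hochberg adjustment, adjusted p = 0.0069). The steps between neighbouring irradiated sites were not called. Perilesional over non-lesional skin stood at 0.93 ± 0.50 (adjusted p = 0.67) by the authors' deposited table, and lesional over perilesional skin at a derived 0.63 ± 0.49 (adjusted p = 0.70 by the same normal tail). The 3 placebo irradiated sites thus kept the order non-lesional, perilesional, lesional, with neither step between neighbours past the threshold. The order is one of skin sites and not of time. In every comparison with non-UV-exposed skin that arm is back skin by the headers. An effect of body site therefore cannot be told apart from one of ultraviolet in any of them.

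Cdkn2a lies on chromosome 4, 89274471 to 89294653, minus strand, of GRCm38. Its transcripts for p16INK4a and p19ARF start at separate promoters and are counted as 1 symbol, so the value above cannot be assigned to either. Both RefSeq promoter windows on GRCm38.p6, from 250 bases before to 50 after the start and read on the minus strand, are shown because the transcripts behind the leading change start there. The window at the larger coordinates is the upstream promoter, that of p19ARF.
Cdkn2a, p19ARF start, chr4:89294570-89294869: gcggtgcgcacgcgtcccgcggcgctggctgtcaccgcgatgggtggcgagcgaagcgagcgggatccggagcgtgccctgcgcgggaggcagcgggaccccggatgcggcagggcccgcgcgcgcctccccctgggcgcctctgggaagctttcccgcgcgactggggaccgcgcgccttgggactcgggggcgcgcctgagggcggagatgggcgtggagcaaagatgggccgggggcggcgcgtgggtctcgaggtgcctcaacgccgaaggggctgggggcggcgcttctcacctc
Cdkn2a, p16INK4a start, chr4:89282143-89282442: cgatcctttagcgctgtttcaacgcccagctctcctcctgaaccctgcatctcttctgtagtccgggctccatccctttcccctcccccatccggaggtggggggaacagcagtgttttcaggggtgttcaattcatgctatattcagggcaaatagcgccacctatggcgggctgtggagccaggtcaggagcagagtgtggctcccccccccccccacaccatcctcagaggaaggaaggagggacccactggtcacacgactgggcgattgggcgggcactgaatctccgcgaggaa

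The second symbol with a sequence of interest is Sesn1, which encodes sestrin 1, a stress protein that restrains mTORC1 and is a p53 target. The 10-base consensus of a p53 half-site, a part of a full p53 site, was searched for in these windows. It reads the same on both strands. It was found for 11 of the 31 members with a RefSeq promoter (35.5%), against 2582 of 27025 genes (9.55%). By window it was found in 12 of 43 member promoters (27.9%), against 2745 of 32851 promoters in all (8.36%). Many members were listed because they are known p53 targets, so a higher share among them can follow from that choice. These shares are given as a description only. Neither Cdkn2a window holds it. One of 2 Sesn1 windows does, on the plus strand of GRCm38.p6, with the match in capitals beginning 173 bases before the start.
Sesn1, chr10:41887189-41887488: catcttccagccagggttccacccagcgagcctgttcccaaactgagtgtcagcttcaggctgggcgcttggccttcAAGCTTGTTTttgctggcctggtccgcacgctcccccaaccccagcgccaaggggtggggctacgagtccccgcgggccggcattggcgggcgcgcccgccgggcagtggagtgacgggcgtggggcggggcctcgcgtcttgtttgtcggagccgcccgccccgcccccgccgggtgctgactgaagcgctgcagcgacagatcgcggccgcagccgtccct
The matches in 4 other members whose RNA was not called are set beside it, since they are among the best known p53 targets. Cdkn1a has 2, both in 1 window.
Cdkn1a, upstream match: GGACTAGCTT
Cdkn1a, downstream match: GAACATGTCT
Mdm2: GAACTTGCCT
Ccng1: GGGCAAGCCT
Gadd45a: GGGCTAGCCC
A match is a half-site by its letters alone and was not tested as a binding site. Of the 7 called members Sesn1 had one, Cdkn2a, Mdm4, Bcl2 and Dram1 had none in these windows, and Pmaip1 and Trp53inp1 were not searched.

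Lesional skin of placebo mice was compared with non-UV-exposed skin, a table that spans exposure and lesion together. Its lower arm is named back skin in the headers, and an effect of the place on the body cannot be told apart from one of ultraviolet. Of the 36 members 6 were called, 2 higher and 4 lower. That is 16.7%, beside 18.3% of the 15201 genes tested, with 10.2% higher and 8.17% lower, so the members changed about as often as genes in general. Their median was 0.03 beside 0.08 for all genes tested, and the median size of change 0.39 beside 0.49. With Cdkn2a, Pmaip1 rose by 1.61 ± 0.42 (3.05-fold, adjusted p = 0.0026) by the authors' deposited table. Its product NOXA is a BH3-only protein that neutralises MCL1.

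**Figure D1:**
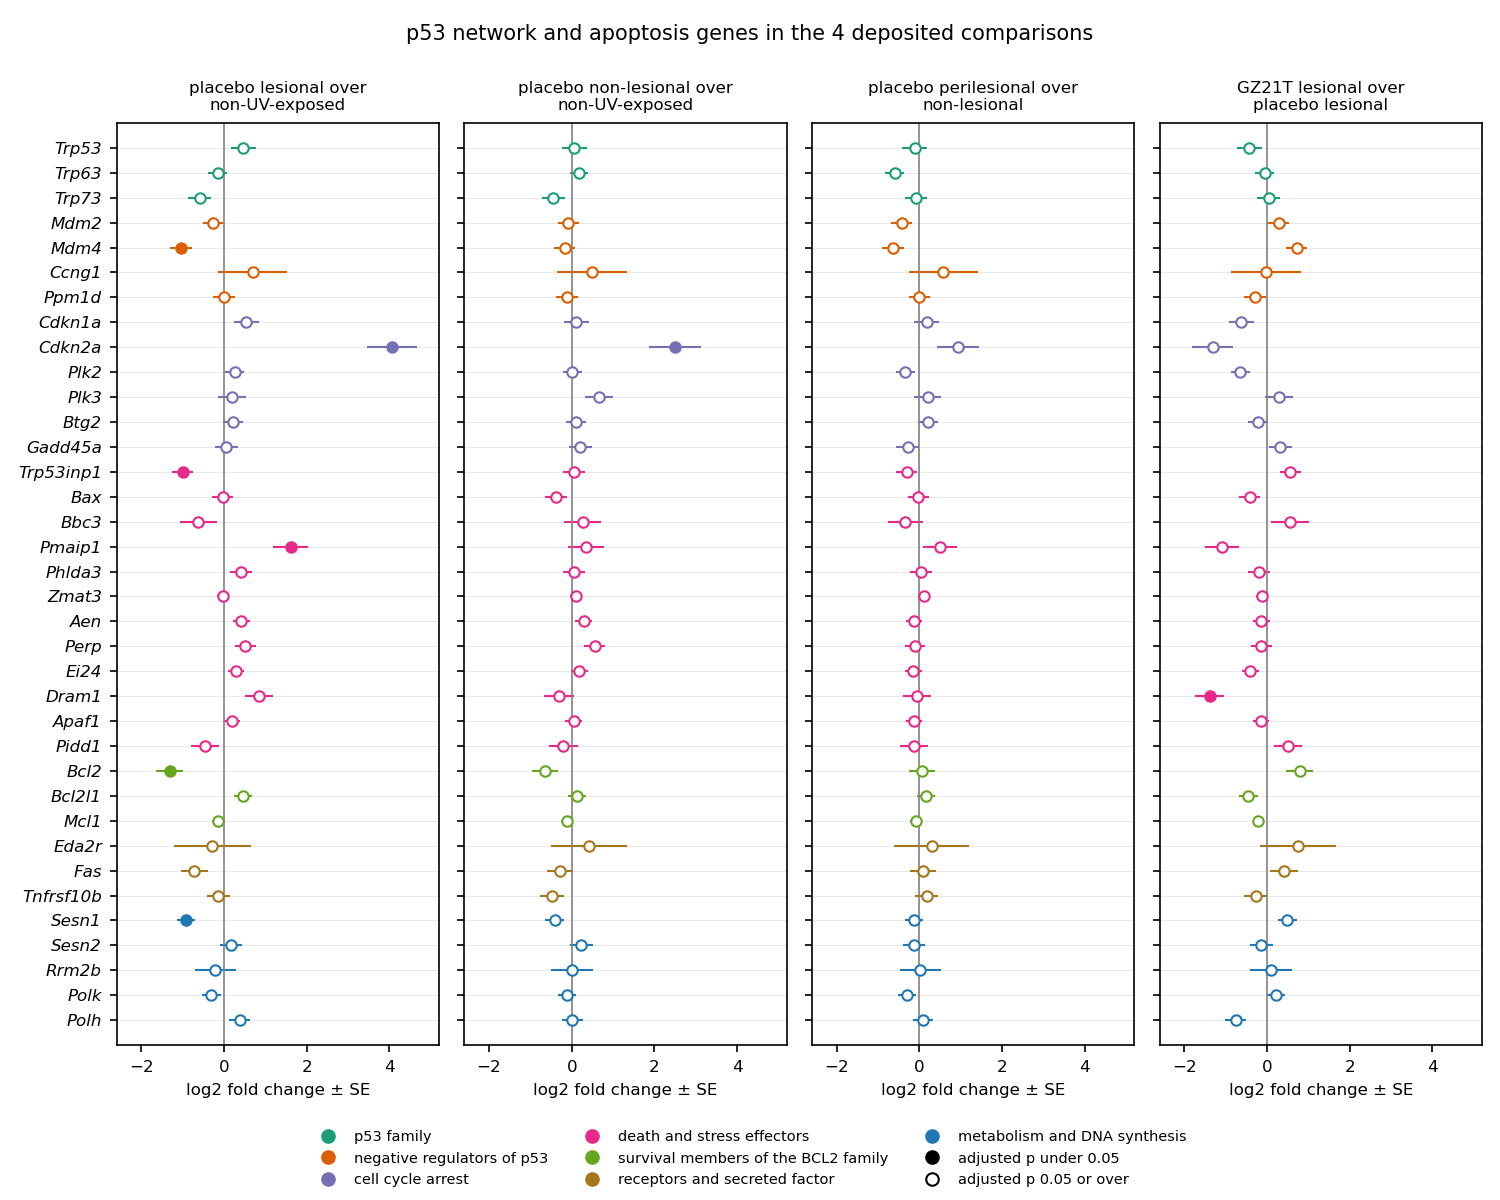
Log2 fold change ± SE (horizontal axis) of the 36 tested members (rows, grouped and coloured by role) in the 4 comparisons the authors deposited, with the first-named group over the second and filled points for an adjusted p under 0.05. Cdkn2a stands furthest right in the first 2 panels, at 4.07 and 2.50, Mdm4, Trp53inp1, Bcl2 and Sesn1 are filled on the left of the first panel, and Dram1 is the filled point of the last panel at -1.39.

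The 4 members that fell in lesions act at different points of the network. Mdm4, which encodes a p53 inhibitor that binds its activation domain, stood at -1.04 ± 0.26 (2.05-fold lower, adjusted p = 0.0016) by the authors' deposited table. Trp53inp1, which encodes a stress-induced nuclear protein that promotes p53-dependent death and autophagy, stood at -1.005 ± 0.26 (2.01-fold lower, adjusted p = 0.0021) by the authors' deposited table. Sesn1 had -0.92 ± 0.22 (1.89-fold lower, adjusted p = 0.0011) by the authors' deposited table. Bcl2, the founding survival gene of its family, had -1.32 ± 0.33 (2.49-fold lower, adjusted p = 0.0013) by the authors' deposited table. Exons of Bcl2 overlap those of D630008O14Rik on the opposite strand, and whether strand was used in counting is not given in the sources used here. Mdm4 lies on chromosome 1, 132959484 to 133030561, Bcl2 on chromosome 1, 106538178 to 106714274, both minus strand, and Sesn1 on chromosome 10, 41809935 to 41908424, plus strand, of GRCm38.

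The p53 family itself was not called in lesions. Trp53 stood at 0.46 ± 0.30 in the authors' deposited table (adjusted p = 0.30), with a 95% interval of -0.13 to 1.06. Trp63 had -0.16 ± 0.22 (interval -0.59 to 0.28, adjusted p = 0.67) by the authors' deposited table. Trp73, the third member of the family, had -0.59 ± 0.28 there (adjusted p = 0.12 in the authors' deposited table). Among the negative regulators Mdm2, the ubiquitin ligase of p53 and its target, had -0.26 ± 0.25 (interval -0.75 to 0.23, adjusted p = 0.49), and the phosphatase gene Ppm1d -0.0019 ± 0.26 (adjusted p = 0.998), in the authors' deposited table. Ccng1, whose product cyclin G1 recruits a phosphatase to MDM2, had 0.69 ± 0.84 (adjusted p = 0.61) by the authors' deposited table. Its SE exceeded that of 95.6% of genes tested in every table, so its interval ran from -0.96 to 2.34.

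Classical arrest genes apart from Cdkn2a were not called in lesions. Cdkn1a, which encodes the cell cycle inhibitor p21 and is the textbook p53 target, had 0.54 ± 0.31 (adjusted p = 0.21) by the authors' deposited table, with an interval of -0.06 to 1.14. Gadd45a, Plk2, Plk3 and Btg2, genes of growth arrest and checkpoint control, lay between 0.06 and 0.26 in the authors' deposited table. The interval of Cdkn2a began at 2.86, above the upper end of that of Cdkn1a.

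Of the 12 death and stress effectors 1 rose and 1 fell in lesions, Pmaip1 and Trp53inp1. Of all genes tested there, 10.2% were called higher and 8.17% lower. Bax, the pore-forming death effector, had -0.03 ± 0.25 (interval -0.53 to 0.46, adjusted p = 0.95) by the authors' deposited table. Bbc3, which encodes the BH3-only protein PUMA, had -0.62 ± 0.46 (adjusted p = 0.36) by the authors' deposited table, so its direction is not established. Dram1, a lysosomal membrane protein of p53-induced autophagy, had 0.85 ± 0.34 (adjusted p = 0.064) by the authors' deposited table. Perp, a p53 target that is also a desmosomal protein of stratified epithelia, had 0.51 ± 0.25 and the nuclease gene Aen 0.42 ± 0.20 (adjusted p = 0.14 for each) by the authors' deposited table. The other members of this group, namely the apoptosome scaffold Apaf1, the caspase-2 activator Pidd1, the AKT inhibitor Phlda3, Ei24 and the RNA-binding Zmat3, lay between -0.47 and 0.41, none of them called in the authors' deposited table.

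Death receptors, survival genes and repair polymerases completed the set. Fas had -0.72 ± 0.32 (adjusted p = 0.10) by the authors' deposited table, and the TRAIL receptor Tnfrsf10b -0.13 ± 0.27 (adjusted p = 0.78). Eda2r, an ectodysplasin receptor, had -0.28 with an SE of 0.92 that exceeded those of 96.3% of genes, so little can be said of it. The survival gene Bcl2l1, which encodes BCL-XL, had 0.45 ± 0.22 (adjusted p = 0.13) while Mcl1 had -0.16 ± 0.14 (adjusted p = 0.44) by the authors' deposited table. Hence 1 of 3 survival genes was called, beside 18.3% of all genes tested. Polh, the translesion polymerase that copies past ultraviolet-induced thymine dimers, had 0.37 ± 0.24 (adjusted p = 0.29), and its relative Polk -0.30 ± 0.22 (adjusted p = 0.35) by the authors' deposited table. Sesn2 had 0.17 ± 0.27 (adjusted p = 0.71), and Rrm2b, a ribonucleotide reductase subunit for repair, -0.21 ± 0.50 (adjusted p = 0.81), in the authors' deposited table.

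Wald statistics in this table had a robust SD of 1.92 over all genes, and divided by it 0 of 36 members and 14 of all genes remained called, with Cdkn2a at an adjusted p of 0.27. In bulk tissue, fewer cells of a type and less RNA per cell cannot be told apart.

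Irradiated skin without lesions differed from non-UV-exposed skin in 1 of 36 members, Cdkn2a, or 2.78% beside 1.66% of the 14124 genes tested, 1.13% of them higher and 0.531% lower. At an unadjusted p under 0.05 there were 4 members, or 11.1% beside 10% of all genes. They were Cdkn2a and 3 that were not called: Perp at 0.55 ± 0.25 (adjusted p = 0.40), Plk3 at 0.66 ± 0.33 (adjusted p = 0.49) and Bcl2 at -0.65 ± 0.32 (adjusted p = 0.47) by the authors' deposited table. Trp53 stood at 0.07 ± 0.31 and Cdkn1a at 0.11 ± 0.31 in the authors' deposited table (adjusted p = 0.98 and 0.97). Apart from Cdkn2a the tested members spanned -0.65 to 0.66.

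Perilesional skin had 0 of 36 members called over non-lesional skin in the authors' deposited DESeq2 table, where 17 of 15201 genes, 0.112%, were called, 0.0921% higher and 0.0197% lower. Unadjusted, 2 members lay under 0.05, both lower, or 5.56% beside 7.83% of all genes. Trp63 had -0.60 ± 0.22 (adjusted p = 0.40) and Mdm4 -0.63 ± 0.26 (adjusted p = 0.47) by the authors' deposited table. Of the 4 deposited tables this one holds the largest difference of Trp63, with an interval of -1.03 to -0.16 before adjustment. The 9 keratinocyte markers had a median of -0.31 in the same comparison, with 0 called. Sebaceous markers were higher for 3 of 6 there (median 2.49), hair markers lower for 1 of 10 (median -3.92), and fibroblast markers had a median of 1.36 with 0 of 6 called. The part of these shifts in the value of Trp63 was not tested.

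Lesional over perilesional skin was derived from 3 deposited tables. Of the 36 members 0 were called with the normal tail and Benjamini-Hochberg adjustment, where 81 of 15187 genes, 0.533%, were called. Under an unadjusted p of 0.05 lay 5 members, 13.9% beside 10.5% of all genes. Dram1 came nearest, at 1.22 ± 0.34 (2.33-fold, adjusted p = 0.053). When the adjustment ran over the 10899 genes tested in all 4 deposited tables it passed, at an adjusted p of 0.043. Trp53inp1 stood at -0.75 ± 0.26 (adjusted p = 0.18), Plk2 at 0.59 ± 0.23 (adjusted p = 0.26), Bcl2 at -0.73 ± 0.33 (adjusted p = 0.39) and Plk3 at -0.66 ± 0.33 (adjusted p = 0.46) by the same normal tail.

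**Figure D2:**
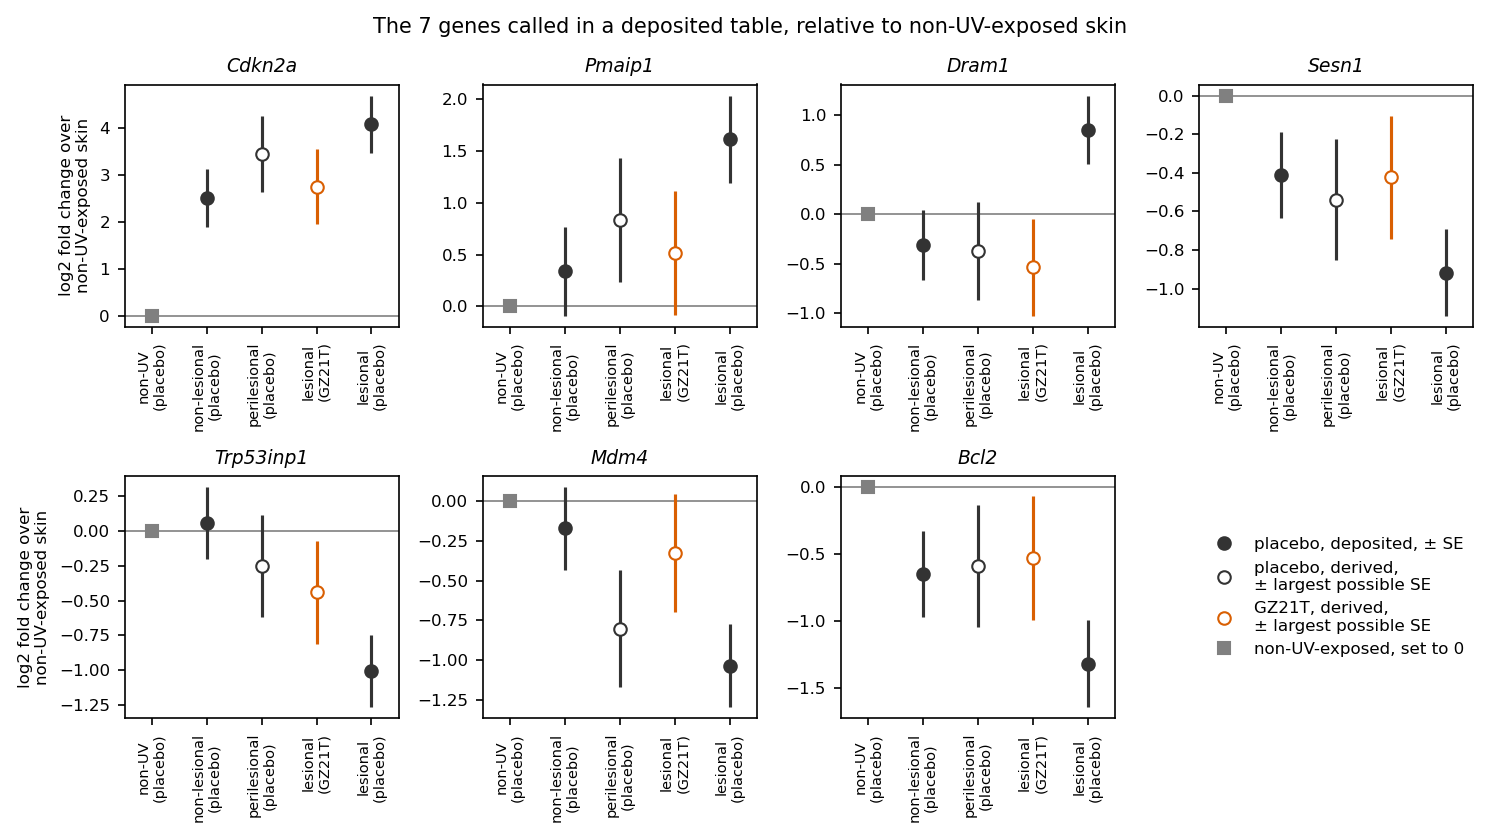
Log2 fold change over non-UV-exposed placebo skin (vertical axis, set to 0 there) for the 7 members called in a deposited table, at non-lesional and perilesional placebo skin, GZ21T lesional skin and placebo lesional skin. Bars are the SE or, where open, an upper bound on it from the 2 deposited contrasts that were added. In GZ21T lesions Cdkn2a, Pmaip1 and Dram1 stand at 2.75, 0.51 and -0.53, and Sesn1, Trp53inp1, Mdm4 and Bcl2 between -0.53 and -0.33. In placebo lesions they stand at 4.07, 1.61 and 0.85 and between -1.32 and -0.92. Apart from Cdkn2a, these members were picked by calls only in comparisons that hold the placebo lesional libraries. Values nearer 0 in GZ21T lesions can follow from that choice, and nothing is read from them.

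Lesions of GZ21T-treated mice were compared with lesions of placebo mice to ask what the cream did to lesional RNA. Dram1 was the 1 member called of 36, or 2.78%, beside 3.61% of the 10899 genes tested, 1.31% higher and 2.29% lower. It fell by 1.39 ± 0.35 on the log2 scale (2.61-fold lower in GZ21T lesions, adjusted p = 0.015) by the authors' deposited table. Unadjusted, 12 of 36 members lay under 0.05, 33.3% beside 22.9% of all genes, 4 higher and 8 lower. Divided by the robust SD of the Wald statistics, 1.64 in this table, 0 members and 0 genes in all were called. Dram1 lies on chromosome 10, 88322804 to 88379080, minus strand, of GRCm38.

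The members next to Dram1 in adjusted p under GZ21T were not called. The share of all genes with an adjusted p this near the threshold was not computed. Polh had -0.76 ± 0.25 (adjusted p = 0.053), Plk2 -0.65 ± 0.23 (adjusted p = 0.072) and Mdm4 0.71 ± 0.26 (adjusted p = 0.084) in GZ21T over placebo lesions in the authors' deposited table. Cdkn2a had -1.32 ± 0.50 (2.49-fold lower, adjusted p = 0.093) and Pmaip1 -1.09 ± 0.42 (2.13-fold lower, adjusted p = 0.094) by the authors' deposited table. Beyond these, Bcl2 stood at 0.79 ± 0.33 (adjusted p = 0.13), Sesn1 at 0.49 ± 0.23 (adjusted p = 0.16) and Trp53inp1 at 0.56 ± 0.26 (adjusted p = 0.17) by the authors' deposited table. Cdkn1a was at -0.62 ± 0.31 (adjusted p = 0.20), Bcl2l1 at -0.45 ± 0.22 (adjusted p = 0.19) and Ei24 at -0.41 ± 0.21 (adjusted p = 0.21), also in the authors' deposited table. Trp53 had -0.43 ± 0.30 (adjusted p = 0.40), Trp63 -0.06 ± 0.22 (adjusted p = 0.92) and Mdm2 0.28 ± 0.25 (adjusted p = 0.53) by the authors' deposited table. The remaining tested members lay between -0.42 (Bax) and 0.74 (Eda2r).

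The placebo lesional libraries also enter the comparison with non-UV-exposed skin, there as the upper arm, so values of the 2 tables are set side by side and nothing is read from their signs. A contrast without those libraries sets GZ21T lesions against placebo non-lesional skin. There all 36 members lay between -0.50 and 0.25, with 0 called by the normal tail and Benjamini-Hochberg adjustment, beside 0.0% of 15187 genes. In this contrast 0 members lay under an unadjusted p of 0.05, beside 3.31% of all genes. Cdkn2a had 0.24 ± 0.51 in it, with an interval of -0.76 to 1.25, and Dram1 -0.23 ± 0.36, with an interval of -0.93 to 0.47. The corresponding contrast of placebo lesions with non-lesional skin has only an upper bound on its SE. It gave 1.56 ± 0.88 for Cdkn2a and 1.16 ± 0.49 for Dram1 (adjusted p = 0.74 and 0.64 by the same normal tail). Both contrasts share the non-lesional arm, so by construction they differ by exactly the deposited GZ21T over placebo value. Setting them side by side therefore adds no evidence on GZ21T, and Dram1 was picked by its call in that deposited comparison. In placebo lesions over non-lesional skin too 0 members and 0.0% of 15192 genes were called. Unadjusted, 4 members lay under 0.05, 11.1% beside 7% of all genes. GZ21T lesions over non-UV-exposed skin, with an upper bound on the SE, had Cdkn2a at 2.75 ± 0.79 (6.71-fold, adjusted p = 0.087 by the normal tail). Here 0 of 36 members were called beside 0.382% of 15192 genes. Unadjusted, 1 member lay under 0.05, 2.78% beside 5.76% of all genes.

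Other genes around p53 were read from 3 further lists. These were written with earlier results of these data known, so their shares of called genes are descriptive and test nothing about the lists. Of 37 tested further p53 targets 8 were higher and 6 lower in lesional over non-UV-exposed skin, or 37.8% beside 18.3% of all genes tested, with a median of 0.15 beside 0.08 for all genes. The cytokine gene Lif had 1.77 ± 0.40 (adjusted p = 0.00041) and the glypican Gpc1 1.55 ± 0.38 (adjusted p = 0.0011) by the authors' deposited table. Lower were Rev3l, the catalytic subunit of translesion polymerase zeta, at -0.95 ± 0.18 (adjusted p = 2.7e-05), and the lysosomal fucosidase Fuca1 at -0.99 ± 0.23 (adjusted p = 0.00063) by the authors' deposited table. In non-lesional over non-UV-exposed skin 1 of 37 was higher and 1 lower, or 5.41% beside 1.66% of all genes. These were Lif at 1.99 ± 0.40 (adjusted p = 0.00027) and the stress factor gene Atf3 at -3.21 ± 0.61 (adjusted p = 5.9e-05) by the authors' deposited table. Under GZ21T 1 of 36 was higher and 1 lower, or 5.56% beside 3.61% of all genes. These were Ascc3 at 0.53 ± 0.16 (adjusted p = 0.035) and Sertad1 at -1.23 ± 0.38 (adjusted p = 0.043) by the authors' deposited table.

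Of 26 tested regulators of p53, 5 were lower and 0 higher in lesions over non-UV-exposed skin. That is 19.2%, about the 18.3% of all genes tested, of which 8.17% were lower, and the median was -0.17 beside 0.08 for all genes. They include the p53-binding proteins Trp53bp2, also called ASPP2, at -1.66 ± 0.30 (adjusted p = 3.9e-06) and Trp53bp1 at -1.004 ± 0.23 (adjusted p = 0.00042) by the authors' deposited table. The p53 kinase Hipk2 had -0.84 ± 0.24 (adjusted p = 0.0062) and Ppp1r13b, also called ASPP1, -0.69 ± 0.21 (adjusted p = 0.0088) by the authors' deposited table. The remaining one, named after its value was seen, is the damage kinase Atm at -0.59 ± 0.19 (adjusted p = 0.019) by the authors' deposited table. Under GZ21T 1 of 25 was called, near the 3.61% of all genes: the ribosomal protein gene Rpl11, whose product can bind MDM2, at -0.81 ± 0.26 (adjusted p = 0.046) by the authors' deposited table. ASPP1 and ASPP2 are cofactors that direct p53 to death genes.

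Of 39 other apoptosis genes 5 were higher and 1 lower in lesions over non-UV-exposed skin, or 15.4% beside 18.3% of all genes tested, with a median of 0.27 beside 0.08 for all genes. Bak1, a pore-forming relative of Bax, had 1.75 ± 0.37 (adjusted p = 0.00014), and Birc5, which encodes the mitotic protein survivin, 1.70 ± 0.38 (adjusted p = 0.00032) by the authors' deposited table. Tnfsf10, the death ligand TRAIL, had 1.37 ± 0.34 (adjusted p = 0.0016) and the inhibitor of apoptosis gene Birc2 -0.61 ± 0.19 (adjusted p = 0.015) by the authors' deposited table. Also called, and named after its value was seen, was the caspase gene Casp6 at 0.997 ± 0.37 (adjusted p = 0.042) by the authors' deposited table. Tnfsf10 was also the 1 gene of 36 called in non-lesional over non-UV-exposed skin, at 2.26 ± 0.34 (adjusted p = 4.6e-08) by the authors' deposited table. Under GZ21T 3 of 32 were lower and 1 higher, or 12.5% beside 3.61% of all genes tested. Birc5 had -1.31 ± 0.38 (adjusted p = 0.030), Bak1 -1.26 ± 0.37 (adjusted p = 0.034) and the TNF receptor Tnfrsf1a -0.75 ± 0.21 (adjusted p = 0.024), while Casp14, the caspase of cornification, had 1.05 ± 0.32 (adjusted p = 0.041), in the authors' deposited table. In perilesional over non-lesional skin 0 genes of these 3 lists were called.

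**Figure D3:**
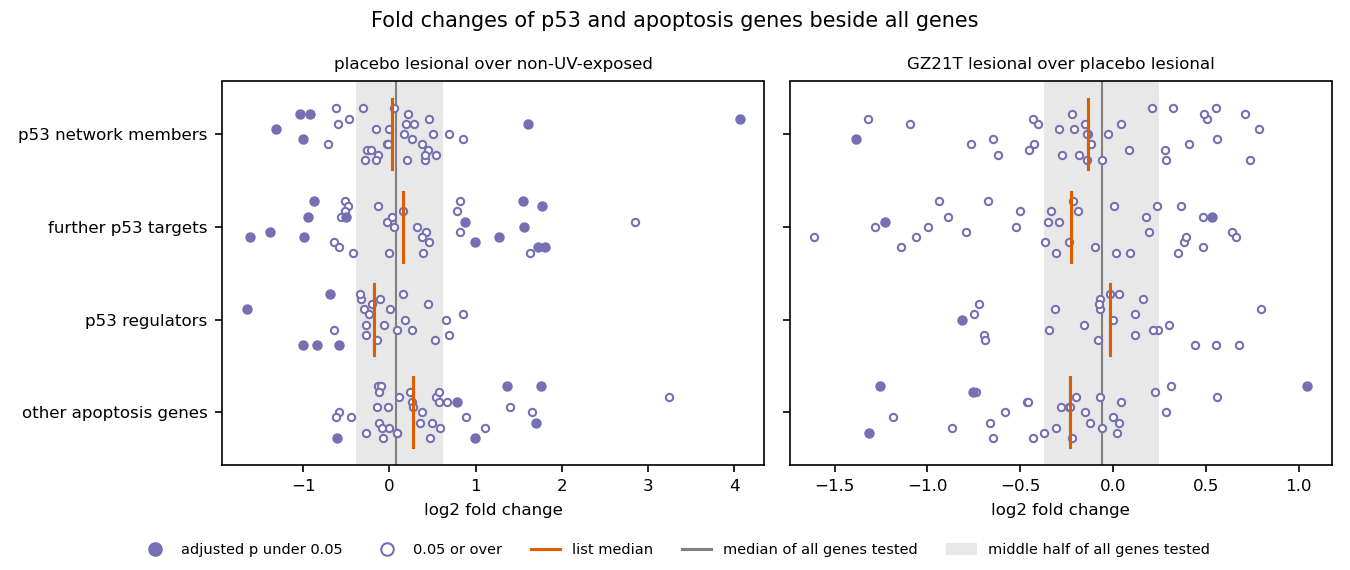
Log2 fold change (horizontal axis) of each tested gene of 4 lists (rows) in placebo lesional over non-UV-exposed skin and in GZ21T over placebo lesions, filled where the adjusted p is under 0.05, with the list median in orange and the median and interquartile range of all genes tested in grey. The medians of the 36 members, 0.03 and -0.14, lie within the grey band in each panel.

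Markers of cell types and of proliferation moved in the same comparisons. In lesional over non-UV-exposed skin 5 of 6 proliferation genes were higher, with a median of 1.19, and in GZ21T over placebo lesions all 6 had negative values with a median of -1.10 and 0 called. Neutrophil markers were higher for 3 of 4 in lesions (median 3.07), endothelial for 2 of 4 (median 2.76) and sebaceous for 3 of 6 (median 1.71), while hair markers were lower for 2 of 10 (median -2.23). Of 4 T cell markers 1 was higher and 2 lower, and of 9 keratinocyte markers 2 were higher and 2 lower. Fibroblast, macrophage, melanocyte, muscle and adipocyte markers had 0 called, and 1 of 3 red cell markers was higher. All 5 muscle markers had positive values (median 1.59) and all 4 adipocyte markers negative ones (median -1.79). In non-lesional over non-UV-exposed skin these 2 medians were 1.365 and -1.64, with 0 called. Called there were 1 of 9 keratinocyte, 1 of 5 macrophage and 1 of 3 red cell markers, lower, and 1 of 4 neutrophil and 1 of 4 T cell markers, higher. In GZ21T over placebo lesions, the comparison in which Dram1 was called, both tested red cell markers were lower, 1 of 9 keratinocyte markers was higher (Krt1 at 1.42 ± 0.38, adjusted p = 0.019, by the authors' deposited table), and 0 were called in the other lists. The 7 tested hair markers all had positive values there (median 1.92), the 4 endothelial markers all negative ones (median -0.96), and 3 neutrophil markers had a median of -3.15. Of the 4 B cell markers 0 had an adjusted p in any table. Summed levels per group cannot be computed from fold changes, and the part of these shifts in the values of the members was not tested.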

How the data were processed

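The unit of analysis was the gene. Libraries of total skin RNA were made with a stranded kit, per the labels' protocols. Per the submitters' processing notes, Trim Galore, DESeq2 and the build GRCm38 (mm10) were used. Not given in the sources used here are the aligner, the counter, its strand setting, the annotation, all versions and the model formula. What the authors deposited is 4 tables of log2 fold changes, each with a Wald statistic (a score) and with p-values and adjusted p-values of the DESeq2 Wald test, per the file headers. Genes without an adjusted p were removed by the authors' filter and not tested. No column of values per library was present, so depth is unknown. After removal of 25 symbols turned into dates, 24027 remained.

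The name and the header of 1 table disagree (perilesional and lesional against lesional over back skin). In it 271 genes are negative out of 1195 whose fold change is exactly 0 for perilesional over non-lesional skin, so its header was followed, and back skin was taken as the non-UV-exposed group. Signs were turned in the GZ21T table, deposited as placebo over GZ21T. Lesional over perilesional and GZ21T lesional over non-lesional skin were derived by adding deposited contrasts. Their variances follow exactly if group was the only term of 1 shared fit, which the sources do not state. For 3 further derived contrasts the SE is the largest possible, so their tests are conservative. Derived p-values are two-sided normal tails with Benjamini-Hochberg adjustment over all genes tested. The derivation was run on simulated independent group means, which checks its arithmetic only. The assumption of 1 shared fit with group as its only term was not tested. Python 3.11.15, numpy 2.4.6, pandas 2.3.3 and scipy 1.17.1 were used. Coordinates are from GENCODE M21 on GRCm38 and promoters from RefSeq on GRCm38.p6.

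The members, the 3 further gene lists and the markers were chosen with earlier results of these data known. All members are accounted for. Of the other lists up to 4 called genes with the smallest adjusted p are named per comparison, and Atm and Casp6 were added after their values were seen. The alternatives were other sets of genes for the adjustment, centring on the median gene, a null spread from the genes and, for derived contrasts, the largest deposited SE.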

Additional observations from a re-analysis of the deposited data

How the results depend on the processing

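The number of members called kept within 1.5 times its value for each of the 9 comparisons under most of the alternatives that were run, with 3 exceptions. With Wald statistics divided by their robust SD over all genes, lesional over non-UV-exposed skin had 0 members called in place of 6, and GZ21T over placebo lesions 0 in place of 1. With the adjustment over genes with an adjusted p in every deposited table, lesional over perilesional skin had 1 member called, Dram1, in place of 0. The robust SD also holds the spread of genes that truly differ, so it is a strict setting where many do. Over single called members and alternatives 28 values stayed past the threshold, 7 lost it, all under the robust SD, and 0 changed sign. Over all genes that setting gave 14 calls in place of 2785 in lesional over non-UV-exposed skin, 0 in place of 393 in GZ21T over placebo lesions, 126 in place of 235 in non-lesional over non-UV-exposed skin, 2 in place of 17 in perilesional over non-lesional skin, 12 in place of 81 in lesional over perilesional skin and 46 in place of 95 in perilesional over non-UV-exposed skin. Without the filter on low counts GZ21T over placebo lesions had 209 genes called, and with the largest deposited SE lesional over perilesional skin had 53. The division by the robust SD was not run for GZ21T lesional skin over non-lesional and over non-UV-exposed skin, whose robust SDs were 0.856 and 0.876.

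No paired analysis was possible because the tables hold no values per library, and leaving out each replicate in turn was not run for the same reason. The median SE per table lay between 0.27 and 0.28 for genes tested in every table.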
